A study of Mus musculus with 6 samples.

Results

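The genes of sterol and fatty acid synthesis were followed across 6 expression arrays of mouse bone marrow macrophages as a set of 35 genes. They were chosen by their known function, but with earlier results of these data known. The set holds 18 sterol pathway enzymes, 11 genes of fatty acid synthesis, elongation and desaturation, 5 regulators of both branches (Srebf1, Srebf2, Scap, Insig1 and Insig2) and the sterol carrier gene Stard4. Of the 35, 34 were measured, out of 18193 genes in all, each read from its brightest probe set that the annotation pairs with that gene alone. No probe set is paired only with Acat2, the cytosolic acetoacetyl-CoA thiolase, and the expression of that gene is not analysed here.

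The cells came from C57BL/6 mice that were either wild type (WT, 3 arrays) or carried a knockin (KI, 3 arrays) in RANK, the receptor for RANKL, at the motif that the series title calls IVVY. Both groups received M-CSF at 44 ng/ml, which keeps macrophage precursors alive, and RANKL at 100 ng/ml, which drives them towards bone-resorbing osteoclasts, for 24 hours. The labels describe neither the altered residues nor the age of the mice, and they number the replicates without saying that each is a separate mouse, so the p-values measure only the spread between these samples, which may be technical.

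Cells make cholesterol from acetyl-CoA by way of mevalonate, the isoprenoid farnesyl diphosphate, squalene and lanosterol, and they make palmitate from the same acetyl-CoA before elongases and desaturases turn it into longer and less saturated fatty acids. Transcription of both branches is driven by the SREBP proteins, membrane-bound factors encoded by Srebf1 and Srebf2. SCAP carries them to the Golgi for cleavage when membrane sterol is low, and the INSIG proteins hold SCAP back when sterol is plentiful. In osteoclast precursors, cholesterol and protein prenylation matter for survival and fusion, and Fdps is the target of the nitrogen-containing bisphosphonate drugs.

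The deposited intensities had medians between 83.0 and 84.8 on the 6 arrays. WT 1 and KI 1 stood apart from the other arrays of their groups: across probe sets, WT 2 correlated with WT 3 at r = 0.997 and KI 2 with KI 3 at r = 0.996, whereas the best correlation of WT 1 with any array was 0.985 and that of KI 1 was 0.993. Results are therefore also given without these 2 arrays. Tnfrsf11a, the gene of RANK, was read by 2 probe sets that differed in opposite directions, by -1.14 (limma adjusted p = 0.0096) and 0.22 (adjusted p = 0.60) on the log2 scale. Which part of the transcript each covers was not analysed here, so neither checks the labels. All 6 macrophage markers were higher in KI, with summed intensities of 53797 to 67908 in WT and 85050 to 89965 in KI. Of 7 osteoclast markers, 6 were lower, with sums of 63802 to 72976 in WT and 29207 to 32503 in KI, and the remaining one, Calcr, lay near the floor of 16 on all arrays. The labelled cell type therefore had its defining markers in both groups. In bulk samples such as these, fewer cells of a type and less RNA per cell cannot be told apart, for the sterol and fatty acid genes as for the markers.

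In the knockin cells 7 of the 34 measured genes were higher and 0 were lower: Hmgcs1, Pmvk, Tm7sf2 and Ebp of the sterol branch, Acss2 and Fads1 of the fatty acid branch, and the regulator Insig1. The test was limma over all 18193 genes with Benjamini-Hochberg adjustment and a threshold of 0.05, and all differences below are KI less WT on the log2 scale of the intensity. Over all genes this test called 11.9% higher and 14.9% lower. At an unadjusted p under 0.05, 12 of the 34 genes were higher and 0 were lower. The 34 differences had a median of 0.26 against -0.0013 over all genes, and 22 of them lay above 0, against 48.4% of all genes. When arrays were scaled to hybridisation spike-in controls instead, the median of all genes moved to -0.20. Older probe sets for the same controls, called the older spike-ins below, moved this median to -0.51, so these scalings do not rest on separate controls. Relative to that median, the sterol median stood at 0.46 as deposited, 0.45 and 0.44, and the fatty acid median at -0.05, -0.05 and -0.06, but the sterol median itself then fell below 0 (-0.07) with the older spike-ins. Directions below are therefore relative to the bulk of the genes.

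The branches differed in how their members were spread. Of the 17 measured sterol enzymes, 4 rose and 13 did not pass, with a median difference of 0.46 and 16 of 17 above 0 (14 with spike-in scaling and 6 with the older spike-ins); Hsd17b7 was the exception. Of the 11 fatty acid genes, 2 rose and 9 did not pass, with a median of -0.05 and 4 above 0. Of the 5 regulators and Stard4, 1 rose and 5 did not pass, with a median of -0.01 (2 above 0). The intensities of KI and WT did not overlap for 6 sterol enzymes, all higher in KI (the 4 that rose, Sc5d and Dhcr7), and for 5 fatty acid genes, of which 2 were higher (Acss2 and Fads1) and 3 lower (Acaca, Fasn and Scd2). Over all genes, 20.5% did not overlap with KI higher and 24.7% with KI lower. The sterol count rested on single arrays: it was 1 without WT 2, WT 3, KI 2 or KI 3, 5 without WT 1 and 8 without KI 1. The share of all genes called higher was 7.2%, 9.61%, 7.66%, 4.91%, 11% and 6.88% in these fits, in the same order. The fatty acid count was 1 without WT 2, KI 2 or KI 3, and the regulator count was 0 without WT 2, WT 3, KI 2 or KI 3 (with 1 at an unadjusted p under 0.05 in each) and 2 without WT 1.

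**Figure D1:**
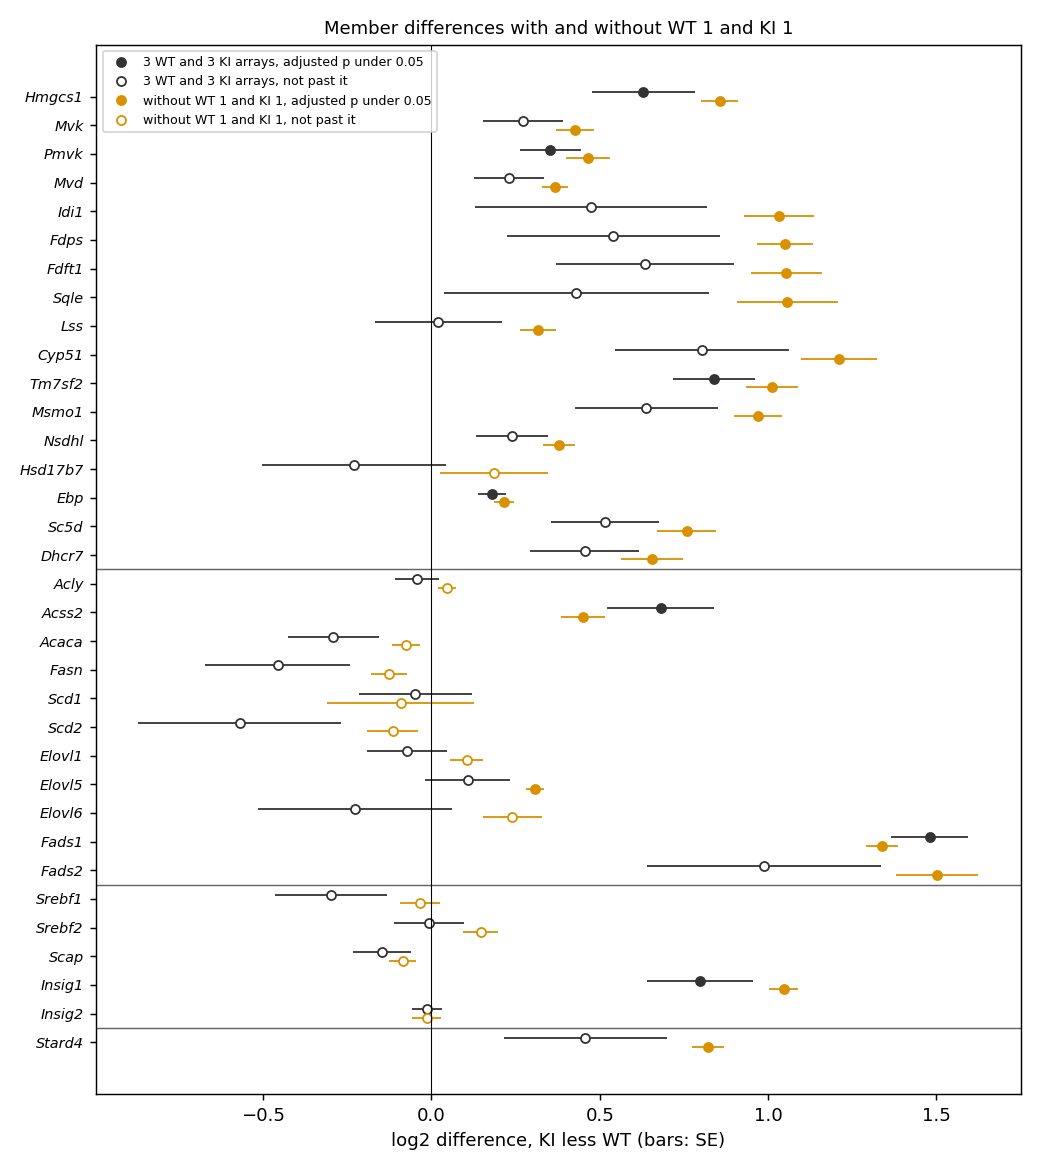
The difference between KI and WT (log2 of the intensity, x axis, bars are the SE from limma) is plotted for each of the 34 measured genes (y axis), in black with all arrays and in orange without WT 1 and KI 1, filled where the adjusted p was under 0.05. With all arrays most sterol enzymes lie to the right of 0, the fatty acid genes lie on both sides, and Fads1 lies farthest to the right at 1.48.

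Array by array, the sterol branch was highest on KI 2 and KI 3. The mean over the 17 enzymes of the log2 intensity, taken from the WT mean of each gene, was 0.24 on WT 1, -0.10 on WT 2 and -0.13 on WT 3, and 0.06 on KI 1, 0.64 on KI 2 and 0.54 on KI 3. KI 1 thus lay between WT 1 and the other WT arrays, and the KI mean of 0.41 ± 0.31 (SD, n = 3) carries that spread. The 11 fatty acid genes had means of 0.11, -0.04 and -0.07 on WT 1 to WT 3, and of -0.12, 0.26 and 0.29 on KI 1 to KI 3. The branch mean was lowest on KI 1 of all 6 arrays, and highest on KI 2 and KI 3. Fads1 and Fads2 carried most of the height on KI 2 and KI 3. Their mean was 0.88, 1.43 and 1.39 on KI 1 to KI 3. The other steps of the branch had means between -0.71 and 0.33 on KI 1. On KI 2 and KI 3 they lay between -0.27 and 0.34. With the 2 spike-in scalings the sterol difference was 0.21 and -0.12, and the fatty acid difference was -0.065 and -0.39. The sterol mean less the fatty acid mean, which no scaling of whole arrays can move, was 0.13, -0.06 and -0.06 on the WT arrays and 0.18, 0.38 and 0.25 on the KI arrays. The 3 KI values lay above the 3 WT values, although KI 1 and WT 1 were close. The KI mean was 0.27, with an SD of 0.10 over the KI arrays and of 0.11 over the WT arrays (n = 3 each), whose mean is 0 by definition. Fads1 and Fads2 are part of the fatty acid mean, and their high KI values lower this difference on the KI arrays. On KI 1, Fads1 stood 1.52 and Fads2 0.25 above the WT mean of the gene. The difference without these 2 genes was not computed.

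**Figure D2:**
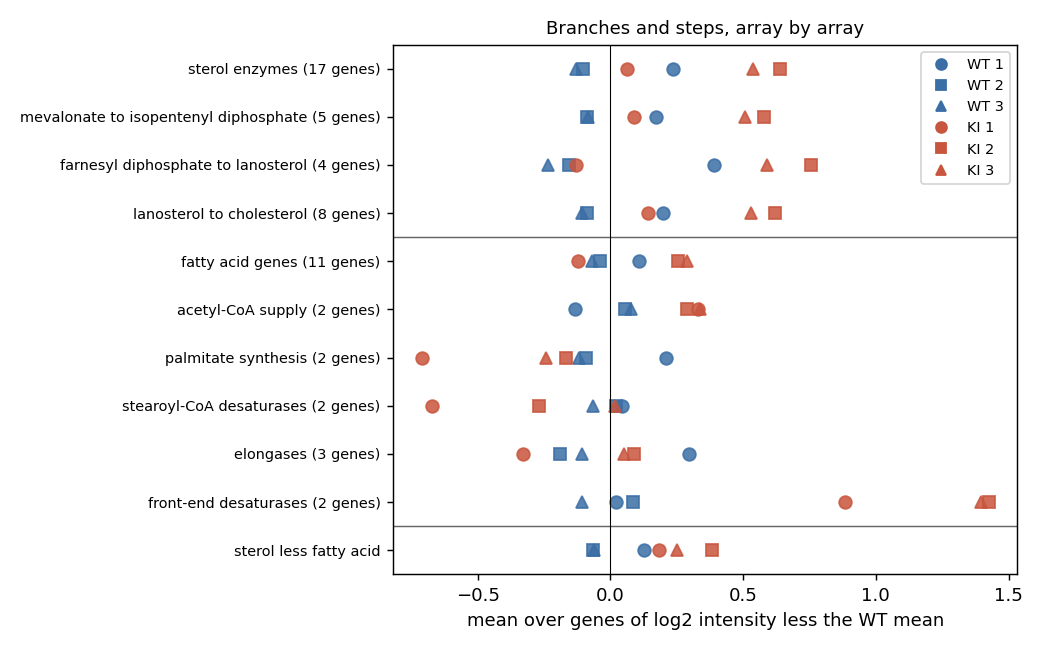
Each row is a branch, a step within it or the difference between the branches, and each point is 1 of the 6 arrays (colour for the group, shape for the replicate); the x axis is the mean over the genes of the log2 intensity less the WT mean of each gene. The sterol mean runs from -0.13 to 0.24 on the WT arrays and from 0.06 to 0.64 on the KI arrays, so that the groups overlap, while in the row of the difference they do not.

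The within-group order was shared by the whole sterol branch. For 17 of 17 enzymes WT 1 was the highest WT array and KI 1 the lowest KI array; this held for 8 of 11 fatty acid genes and for 23.1% of all genes. KI 2 and KI 3 both lay above WT 2 and WT 3 for 16 of 17 sterol enzymes, 7 of 11 fatty acid genes and 29.9% of all genes. KI 1 lay above every WT array for 6 of 17 sterol enzymes, near the 32.7% of all genes. Within each group this order ran with other values of the same arrays. WT 1 had the lowest macrophage marker sum (53797) and the highest osteoclast marker sum (72976), and KI 1 had the highest macrophage sum (89965) and the lowest osteoclast sum (29207). The neutrophil marker sum was 43495 on KI 1, 21993 on KI 2 and 30932 on KI 3, against 15715 to 19724 in WT, and 1 of the 7 measured markers was higher in KI. The sums of the 3 measured stromal markers were 1992 to 6810 in WT and 2125 to 8449 in KI. Of the 4 measured adipocyte markers, Adipoq (17.3 to 19.3), Lep and Cidec lay near the floor on all arrays, and Fabp4, which macrophages also make, was higher in KI; the sums were 724 to 858 in WT and 1066 to 1785 in KI. B cell, T and NK cell and mast cell sums reached at most 391, 600.01 and 193 on any array, and the sum of the 3 measured erythroid and megakaryocyte markers, carried by Pf4, was 2299 to 3186 in WT and 7297 to 8972 in KI. The part of these cell types in the sterol result was not tested. The numbers in the sample descriptions run in sequence for WT 1, WT 2 and KI 1 and are later for KI 2 and KI 3; the labels do not say what they stand for, and the sterol mean difference was 0.13 with that number as a covariate.

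Without WT 1 and KI 1, 16 of the 17 sterol enzymes were higher, against 11.4% of all genes, and the exception was again Hsd17b7 (0.19, limma adjusted p = 0.49). In that fit of 2 against 2 arrays Cyp51 differed by 1.21, Sqle by 1.06, Fdft1 and Fdps by 1.05 each, Idi1 by 1.03 and Tm7sf2 by 1.01. Since WT 1 was the highest WT array and KI 1 the lowest KI array for each of the 17, leaving out this pair raises every sterol difference by construction, and the counts and sizes of this fit are a description only. Of the fatty acid genes, 4 were then higher (Fads2 by 1.50, Fads1 by 1.34, Acss2 by 0.45 and Elovl5 by 0.31), and Insig1 (1.05) and Stard4 (0.82) were higher as well.

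**Figure D3:**
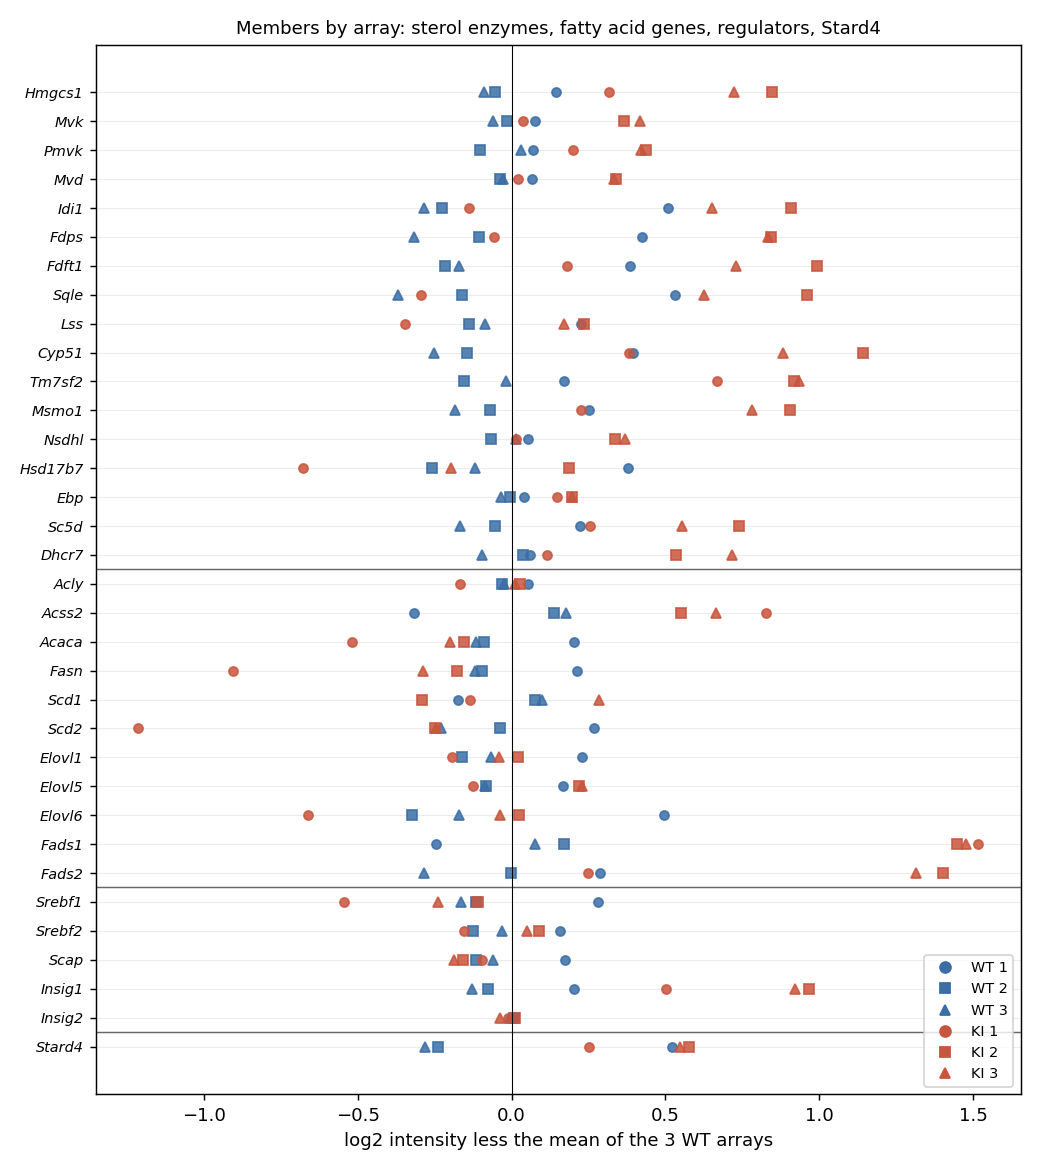
Each row is 1 of the 34 measured genes and each point 1 array (colour for WT or KI, shape for the replicate); the x axis is the log2 intensity less the WT mean of that gene. In the sterol rows WT 1 is the rightmost WT point and KI 1 the leftmost KI point in all 17 cases, and in the Fads1 row the KI points lie together, clear of WT.

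The early enzymes turn acetyl-CoA into isopentenyl diphosphate. Hmgcs1, which makes HMG-CoA for the mevalonate pathway, had intensities of 3468, 3022 and 2955 on WT 1 to WT 3 and 3912, 5653 and 5183 on KI 1 to KI 3. All KI arrays lay above all WT arrays, KI 1 by the least, and Hmgcs1 rose by 0.63 (SE 0.15, limma adjusted p = 0.033), 1.55-fold. The call was lost without WT 2, WT 3, KI 2 or KI 3, with adjusted p between 0.081 and 0.11, with spike-in scaling (0.42, adjusted p = 0.13), with 1 mean per gene (0.59, adjusted p = 0.054) and with the older spike-ins (0.10, adjusted p = 0.73). A block for the replicate number (adjusted p = 0.12) and the description number as a covariate (adjusted p = 0.17) removed it too. Over all genes these fits called only 0.80% and 3.89% higher, against 11.9% without these terms. They thus removed most calls of any gene, which holds for the genes below as well. Pmvk, which adds the second phosphate to mevalonate, measured 621, 551 and 604 in WT and 679, 800 and 792 in KI. The groups did not overlap, and Pmvk rose by 0.35 (SE 0.09, adjusted p = 0.039), a call that leaving out any array other than KI 1 removed. With spike-in scaling the difference was 0.15, and with the older spike-ins it turned to -0.18. The replicate block (adjusted p = 0.14) and the description number (adjusted p = 0.22) also removed the call. Mvk, the mevalonate kinase, and Mvd, the decarboxylase, differed by 0.27 and 0.23 (adjusted p = 0.15 and 0.16). By these probe sets KI 1 lay within the WT range for both. That of Mvd is of a type that may be shared between transcripts. The other probe set of Mvd measured 674, 619 and 649 in WT and 721, 822 and 782 in KI, without overlap. It differed by 0.26 (limma adjusted p = 0.054 over all probe sets). In the fit that left out such shared types, Mvd rose by 0.26 (limma adjusted p = 0.047). Idi1, the isomerase that makes dimethylallyl diphosphate, measured 1652, 993 and 955 in WT and 1056, 2180 and 1823 in KI; the groups overlapped through WT 1 and KI 1, and the difference of 0.47 had an adjusted p of 0.38.

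The enzymes from farnesyl diphosphate to lanosterol had the widest spread within groups of the 3 sterol steps. Fdps, which makes farnesyl diphosphate, measured 3405, 2363 and 2038 in WT and 2444, 4558 and 4529 in KI, a difference of 0.54 (SE 0.32, adjusted p = 0.27). Sqle, the squalene epoxidase, measured 1271, 788 and 682 in WT and 718, 1712 and 1359 in KI (0.43, SE 0.39, adjusted p = 0.49). In both genes KI 1 lay within the WT range while KI 2 and KI 3 lay above it. Fdft1, the squalene synthase that commits farnesyl diphosphate to sterols, differed by 0.63 (adjusted p = 0.14). Lss, which closes the ring to lanosterol, differed by 0.02 (95% interval -0.45 to 0.49, adjusted p = 0.96) by a probe set whose type may be shared between transcripts. A dimmer probe set of Lss, not of that type, measured 219, 213 and 202 in WT and 236, 286 and 289 in KI, groups that did not overlap, and differed by 0.35 (limma adjusted p = 0.069 over all probe sets). None of these 4 passed with all 6 arrays, nor had an unadjusted p under 0.05, and their mean was 0.39 on WT 1 and -0.13 on KI 1, against 0.76 on KI 2 and 0.59 on KI 3.

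Among the 8 enzymes that convert lanosterol to cholesterol, Tm7sf2 and Ebp rose. Tm7sf2, a sterol reductase, had intensities of 250, 200 and 220 in WT and 353, 421 and 425 in KI. Its groups were clearly apart, KI 1 included, and it rose by 0.84 (SE 0.12, limma adjusted p = 0.0082), 1.79-fold. The call held without any single array but not with the older spike-ins (0.31, adjusted p = 0.31). It was also lost with a block for the replicate number (adjusted p = 0.074) and with the description number as a covariate (adjusted p = 0.060). Ebp, the sterol isomerase that also binds emopamil, measured 3441, 3333 and 3263 in WT and 3709, 3831 and 3829 in KI. The rise of 0.18 (SE 0.04, adjusted p = 0.028) was small and turned to -0.03 and -0.35 with the 2 spike-in scalings. The call was also lost without WT 2, WT 3 or any 1 of the KI arrays, and on the scale of log2 of the intensity plus 32 (adjusted p = 0.054). With the replicate block and with the description number the adjusted p of Ebp was 0.15 and 0.16. Cyp51, the lanosterol demethylase, measured 521, 359 and 333 in WT and 517, 875 and 731 in KI, so that KI 1 lay just below WT 1; its difference of 0.80 did not pass (SE 0.26, adjusted p = 0.073). Msmo1, which oxidises the methyl groups at the sterol ring, differed by 0.64 (adjusted p = 0.079). Sc5d, the lathosterol desaturase, and Dhcr7, which makes cholesterol in the last step of one route, differed by 0.52 (adjusted p = 0.066) and 0.46 (adjusted p = 0.096) with groups that did not overlap. Nsdhl, a demethylating dehydrogenase, differed by 0.24 (adjusted p = 0.16).

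Hsd17b7, the ketoreductase that works with Nsdhl and Msmo1, was the only sterol enzyme with a difference below 0. It measured 475, 305 and 336 in WT and 228, 415 and 319 in KI, a difference of -0.23 (SE 0.27, adjusted p = 0.60). KI 1 was the lowest of all arrays, and the other KI arrays lay within the WT range. For the 25 genes read by several probe sets, the 47 probe sets that were not used as the gene's value held 2 that rose and 0 that fell, where 8.18% and 10.5% of all probe sets rose and fell. They were a second probe set of Sc5d, which rose by 0.91 (limma adjusted p = 0.0049 over all probe sets), and a second of Fads1, below. Sc5d was therefore called by 1 of its probe sets and not by its brightest.

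SREBP proteins bind sterol regulatory elements, usually beside sites for NF-Y and Sp1, and the promoters of the genes that rose are shown for that reason. RefSeq promoter sequences (build GRCm38.p6, from 250 bases before to 50 bases after the gene's start) were at hand for 28 of the 35 genes. They were searched on both strands for a sterol regulatory element (TCACNCCAC), the NF-Y box (CCAAT) and the Sp1 box (GGGCGG). Matches are in capitals in the 5 sequences below, those of the genes that rose and had exactly 1 promoter entry, printed 5′ to 3′ on the strand of the gene. They lie at chr13:119690101-119690400 (plus strand) for Hmgcs1, chr19:6067801-6068100 (minus strand) for Tm7sf2, chrX:8193463-8193762 (minus strand) for Ebp, chr2:155517793-155518092 (plus strand) for Acss2 and chr5:28071162-28071461 (plus strand) for Insig1.
Hmgcs1: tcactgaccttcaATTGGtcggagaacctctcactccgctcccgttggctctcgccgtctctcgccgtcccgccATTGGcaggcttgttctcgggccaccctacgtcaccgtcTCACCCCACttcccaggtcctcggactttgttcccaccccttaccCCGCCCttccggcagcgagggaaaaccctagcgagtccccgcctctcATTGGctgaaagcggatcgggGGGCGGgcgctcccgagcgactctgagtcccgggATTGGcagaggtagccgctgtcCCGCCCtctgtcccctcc
Tm7sf2: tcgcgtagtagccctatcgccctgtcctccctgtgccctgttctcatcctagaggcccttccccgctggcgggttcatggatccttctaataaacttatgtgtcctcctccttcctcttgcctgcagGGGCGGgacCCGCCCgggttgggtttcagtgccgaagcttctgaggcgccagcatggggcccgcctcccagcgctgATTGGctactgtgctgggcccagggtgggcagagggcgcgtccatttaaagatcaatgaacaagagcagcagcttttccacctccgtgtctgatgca
Ebp: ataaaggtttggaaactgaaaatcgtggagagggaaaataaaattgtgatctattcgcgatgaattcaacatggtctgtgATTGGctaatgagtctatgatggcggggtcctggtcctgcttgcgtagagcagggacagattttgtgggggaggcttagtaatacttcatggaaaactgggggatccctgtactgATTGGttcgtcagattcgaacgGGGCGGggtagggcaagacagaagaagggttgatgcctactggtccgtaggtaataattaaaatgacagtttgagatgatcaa
Acss2: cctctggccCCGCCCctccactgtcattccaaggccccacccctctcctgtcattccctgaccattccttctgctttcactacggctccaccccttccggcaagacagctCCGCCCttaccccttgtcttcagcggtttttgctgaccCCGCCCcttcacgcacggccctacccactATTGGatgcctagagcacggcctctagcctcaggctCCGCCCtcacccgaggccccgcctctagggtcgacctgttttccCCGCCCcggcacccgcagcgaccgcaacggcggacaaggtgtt
Insig1: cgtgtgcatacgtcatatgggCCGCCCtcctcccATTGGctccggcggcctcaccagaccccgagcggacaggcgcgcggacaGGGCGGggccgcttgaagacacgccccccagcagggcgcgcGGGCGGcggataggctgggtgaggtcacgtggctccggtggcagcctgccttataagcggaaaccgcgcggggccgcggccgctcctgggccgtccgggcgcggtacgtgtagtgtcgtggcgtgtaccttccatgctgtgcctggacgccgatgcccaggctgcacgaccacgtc

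Some genes had several promoters, and a gene was counted where any of them held a match. The sterol element was found in 1 of the 28 genes, Hmgcs1, where it reads TCACCCCAC, and in 1.44% of the 27025 genes with a promoter. The NF-Y box, which reads ATTGG on the other strand, stood in 23 of 28 genes, against 41.1% of all genes. It was held by 14 of 15 sterol enzymes and 5 of 8 fatty acid genes. The Sp1 box stood in 23 of 28 genes, against 38.2% of all genes, with 14 of 15 sterol enzymes and 4 of 8 fatty acid genes. The 28 genes and the 15 sterol enzymes include Acat2, whose expression was not measured and which held the Sp1 box but not the NF-Y box. The Hmgcs1 promoter held 4 NF-Y boxes and 3 Sp1 boxes, the Acss2 promoter 1 and 5, the Insig1 promoter 1 and 3, the Tm7sf2 promoter 1 and 2 and the Ebp promoter 2 and 1. A match is a run of letters and not a measured binding site, and no match says only that these letters are not in this window.

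Among the genes of the fatty acid branch that supply acetyl-CoA or build palmitate from it, only Acss2 rose. Acss2, which makes acetyl-CoA from acetate, measured 283, 388 and 399 in WT and 625, 517 and 559 in KI. All KI arrays lay above WT, KI 1 the highest, and Acss2 rose by 0.68 (SE 0.16, limma adjusted p = 0.030), 1.60-fold. The call was lost without WT 2 or any 1 of the KI arrays, with 1 mean per gene (0.53, adjusted p = 0.051) and with the older spike-ins (0.15, adjusted p = 0.63). It was also lost with a block for the replicate number (adjusted p = 0.12) and with the description number as a covariate (adjusted p = 0.10). Acly, which makes acetyl-CoA from citrate, differed by -0.04 (95% interval -0.21 to 0.12, adjusted p = 0.69). Acaca, the acetyl-CoA carboxylase, and Fasn, the fatty acid synthase, were lower on every KI array than on any WT array without passing the test. Acaca differed by -0.29 (adjusted p = 0.18). Fasn measured 1820, 1470 and 1445 in WT and 839, 1388 and 1285 in KI, a difference of -0.46 (SE 0.22, adjusted p = 0.18), and KI 1 was far below the other KI arrays.

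The stearoyl-CoA desaturases place the first double bond. Scd2 measured 9692, 7850 and 6868 in WT and 3476, 6777 and 6791 in KI. KI 1 was by far the lowest array, while KI 2 and KI 3 lay just under WT 3, and the difference of -0.57 had an SE of 0.30 and an adjusted p of 0.23. Scd1 differed by -0.05 (adjusted p = 0.88) by its brightest probe set. Its other probe set measured 200, 207 and 247 in WT and 111, 130 and 184 in KI, without overlap, and differed by -0.65 (limma adjusted p = 0.10 over all probe sets); the mean of both gave -0.35 (adjusted p = 0.22). The elongases Elovl1 (very long saturated chains), Elovl5 (polyunsaturated chains) and Elovl6 (palmitate) differed by -0.07, 0.11 and -0.23, and none passed (adjusted p between 0.59 and 0.72).

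The front-end desaturases, which build arachidonic and other highly unsaturated fatty acids, had the largest mean difference of the steps in this branch (1.23). Fads1 measured 1185, 1582 and 1480 in WT and 4023, 3831 and 3908 in KI. The KI arrays lay close together, KI 1 included, and Fads1 rose by 1.48 (SE 0.11, limma adjusted p = 0.0021), 2.79-fold, and was called in every alternative fit. Its second probe set rose by 0.67 (adjusted p = 0.012), so that the direction was shared and the size was not. Fads2, which acts at the step before Fads1 in the same series of reactions, measured 328, 268 and 220 in WT and 319, 711 and 668 in KI. KI 1 lay with the WT arrays, and the difference of 0.99 did not pass (SE 0.35, adjusted p = 0.092). The order of the KI arrays was thus not the same in the pair: KI 1 was the highest KI array for Fads1 and the lowest for Fads2.

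Of the regulators, Insig1 rose and the factors themselves did not pass. Insig1, which retains SCAP and is itself an SREBP target, measured 1136, 936 and 904 in WT and 1397, 1930 and 1869 in KI. The groups did not overlap, and Insig1 rose by 0.80 (SE 0.16, limma adjusted p = 0.019), 1.74-fold. The adjusted p lay between 0.057 and 0.073 without WT 2, WT 3, KI 2 or KI 3, and the difference was 0.59 (adjusted p = 0.064) and 0.27 (adjusted p = 0.37) with the 2 spike-in scalings. With a block for the replicate number the adjusted p was 0.10, and with the description number as a covariate it was 0.11. Insig2, its paralogue, measured 873, 879 and 871 in WT and 867, 882 and 851 in KI, a difference of -0.01 (95% interval -0.12 to 0.10). Srebf2, whose product drives mainly the sterol branch, measured 1111, 914 and 975 in WT and 895, 1060 and 1031 in KI, a difference of -0.01 (95% interval -0.26 to 0.25, adjusted p = 0.99). Its other probe set measured 682, 650 and 622 in WT and 653, 838 and 815 in KI. That probe set differed by 0.23 and did not pass (limma adjusted p = 0.22 over all probe sets). Srebf1, whose products drive mainly the fatty acid branch, measured 2626, 1999 and 1929 in WT and 1482, 2008 and 1833 in KI (-0.30, SE 0.17, adjusted p = 0.25). Both Srebf genes had WT 1 as the highest array of WT and KI 1 as the lowest of KI. Scap differed by -0.15 (adjusted p = 0.28). Stard4, a carrier that moves sterol between membranes, measured 805, 475 and 462 in WT and 668, 836 and 819 in KI; the groups overlapped, and the difference of 0.46 had an adjusted p of 0.23. These are RNA levels, and cleavage of the SREBP proteins was not measured.

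**Figure D4:**
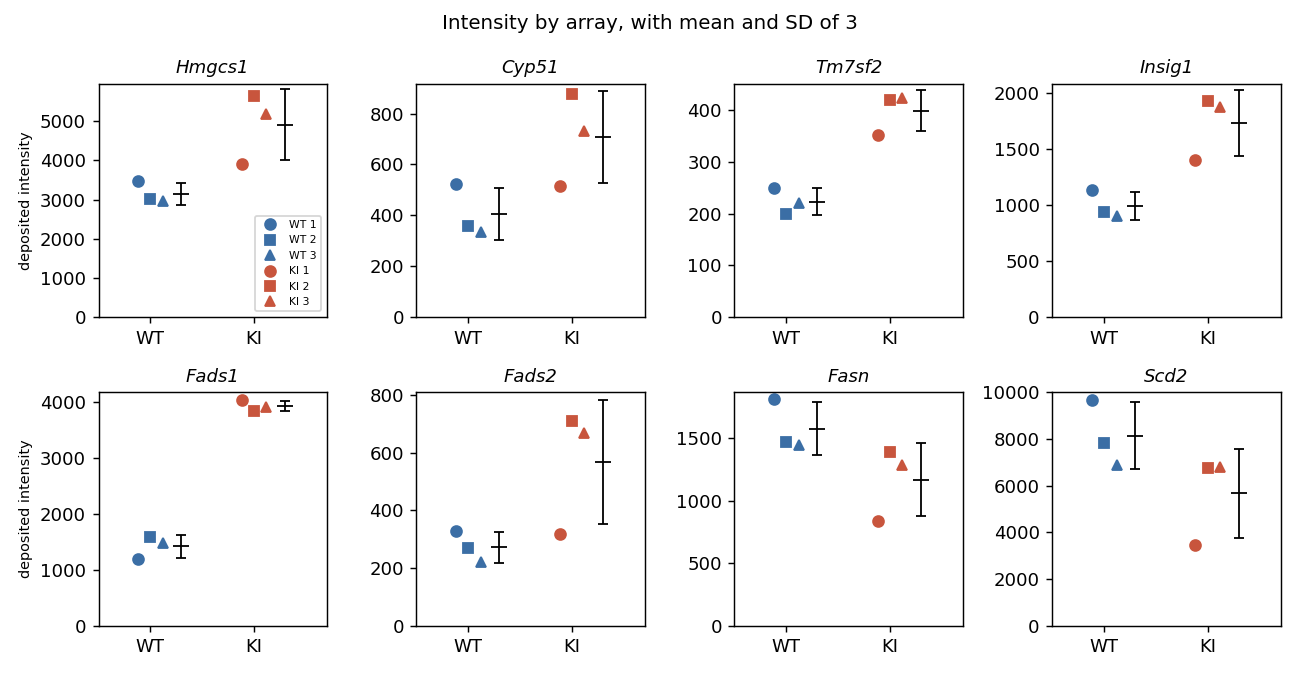
The deposited intensity (y axis, linear, from 0) of 8 genes is plotted for WT and KI, with 1 point an array (shape for the replicate) and the mean ± SD of 3 arrays beside it. Tm7sf2 and Fads1 show groups that are apart on every array, Cyp51 and Fads2 show KI 1 beside the WT arrays, and Fasn and Scd2 are lowest on KI 1.

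Around these genes, 71 others of the surrounding pathways were listed, of which 64 were measured; 18 rose and 6 fell, against the 11.9% and 14.9% of all genes. With spike-in scaling the counts were 8 higher and 15 lower, where 7.04% of all genes were higher and 27.2% lower. With the older spike-ins they were 4 higher and 26 lower, where 2.31% of all genes were higher and 45.1% lower. Without KI 2 the counts were 11 and 4, against 7.66% and 9.75% of all genes. Without KI 3 they were 9 and 3, against 4.91% and 6.14%. With the older spike-ins, the differences of Osbpl9, Plin2, Pgd, Rnf139, Rabggta and Acsl4 turned below 0. For the handling of sterol after its synthesis, 6 of 11 measured genes rose and 1 fell, with a median difference of 0.45. Nceh1, a cholesteryl ester hydrolase, rose by 1.33 (SE 0.11, limma adjusted p = 0.0027) and Osbpl9, an oxysterol-binding protein, by 0.46 (SE 0.06, adjusted p = 0.0071), while Abcg1, a sterol exporter, fell by 0.79 (SE 0.16, adjusted p = 0.019). In glycerolipid assembly 5 of 11 rose and the others did not pass; among those that rose were the lipid droplet protein gene Plin2 (0.34, adjusted p = 0.0044) and the phosphatidate phosphatase gene Lpin2 (0.65, adjusted p = 0.0071). Of 6 genes that supply NADPH, electrons or citrate, 3 rose and 3 did not pass, with Idh1 at 0.53 and Pgd at 0.21 (adjusted p = 0.018 and 0.019).

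Of 10 genes of SREBP processing and sterol sensing, 2 rose and 2 fell. Mbtps1 and Mbtps2, the proteases that release SREBP proteins in the Golgi, fell by 0.35 (SE 0.05, limma adjusted p = 0.0066) and 0.31 (SE 0.06, adjusted p = 0.020). Rxra, a partner of the oxysterol receptors, measured 239, 369 and 351 in WT and 1085, 867 and 905 in KI. It rose by 1.59 (adjusted p = 0.0054) by the brightest of its 3 probe sets. With 1 mean per gene Rxra rose by only 0.59 (adjusted p = 0.012), so the size rested on that probe set. Rnf139, a ubiquitin ligase of the endoplasmic reticulum, rose by 0.33 (adjusted p = 0.016). Of 11 genes that use isoprenoids, 1 rose and 1 fell, and they encode the subunits of the same Rab prenyltransferase: Rabggta rose by 0.26 (adjusted p = 0.032) and Rabggtb fell by 0.59 (adjusted p = 0.0043). Of 15 other fatty acid genes, 1 rose and 2 fell: Acsl4, which activates arachidonic acid, rose by 0.42 (adjusted p = 0.028), and Hacd3 and Mcat, of microsomal elongation and mitochondrial synthesis, fell by 0.59 (adjusted p = 0.0080) and 0.52 (adjusted p = 0.018).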

How the data were processed

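Per the labels' protocols, total RNA was labelled from the 3′ end and hybridised to Affymetrix mouse expression arrays. The authors deposited 1 linear intensity for each of 45101 probe sets, made with Affymetrix Expression Console per the submitters' processing notes; as to which version, algorithm and scaling it used, that is not given in the sources used here. Similar array medians were read as prior normalization. After leaving out 64 control probe sets, 34945 paired with 1 gene symbol; a gene took its brightest, which gave 18193 genes. Intensities were floored at 16 (5.47% of values; 0 of the member genes were below it) and log2 transformed. The test of KI against WT was limma's (lmFit, eBayes with trend; limma 3.58.1, R 4.3.3) with Benjamini-Hochberg adjustment over all genes. These steps were tested on simulated data. The genes and lists were chosen with earlier results of these data known, and no list test was run. All 35 genes are named, and up to 2 per surrounding list and direction with the smallest p. Promoters were to be printed where the sterol element matched; those of the other genes that rose were added after their values were seen. The number of arrays limits the precision. Alternatives covered scaling, filtering, probe set choice, a replicate block, the description number and left-out arrays; those of the surrounding genes were added after seeing the data.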

Additional observations from a re-analysis of the deposited data

How the results depend on the processing

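With 3 arrays a group, single arrays decided many calls, and the scale between arrays was set by the submitters. Of the genes that rose, Fads1 was called under every alternative run; quantile normalization, a common median and leaving out probe sets shared by transcripts kept the counts of the lists within 1.5 times. The cause was not tested for any of the changes below. Signals near the floor limit no listed gene of the set.

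Leaving out 1 array gave 2011 to 4381 genes past the threshold, 1 to 8 sterol enzymes, 1 to 2 fatty acid genes, 0 to 2 of the regulators with Stard4, and 12 to 24 of the surrounding genes. Leaving out WT 1 and KI 1 together, which raises the sterol differences by construction, gave 16, 4 and 2 of the first 3 lists, with branch means of 0.71 (sterol), 0.33 (fatty acid) and 0.38 (their difference). Spike-in scaling, with 7.04% of all genes higher, left 1 sterol enzyme and 0 regulators (3 at an unadjusted p under 0.05 in limma), with a fatty acid mean of -0.065. The older spike-ins gave 8619 genes (421 higher and 8198 lower), 1 sterol enzyme, which was lower (Hsd17b7, -0.76, limma adjusted p = 0.022), 6 fatty acid genes (1 higher and 5 lower) and 2 regulators, both lower, and means of -0.12 (sterol) and -0.39 (fatty acid). The filter at the median gave 7 sterol enzymes (21.3% of its genes were higher), and 1 mean per gene gave 1 fatty acid gene. With the description number as a covariate, 1671 genes passed, with 0 sterol enzymes (1 at an unadjusted p under 0.05), 1 fatty acid gene, 0 regulators (1 unadjusted) and 10 surrounding genes, and means of 0.13 (sterol) and -0.084 (fatty acid).

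The replicate numbers did not pair the arrays: same-numbered arrays deviated from their group means with correlations of -0.40, -0.29 and -0.30. In the fit with a replicate block, 344 genes passed, with 0 sterol enzymes (4 at an unadjusted p under 0.05), 1 fatty acid gene, 0 regulators (1 unadjusted) and 1 surrounding gene.

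Differences of single genes that changed sign were as follows. With quantile normalization Scd1 was 0.0096, Srebf2 0.049 and Insig2 0.050, and with 1 mean per gene Srebf2 was 0.11 and Insig2 0.051. With spike-in scaling Lss was -0.19, Ebp -0.026 and Elovl5 -0.098. With the older spike-ins Mvk was -0.26, Pmvk -0.18, Mvd -0.30, Idi1 -0.056, Sqle -0.10, Lss -0.51, Nsdhl -0.29, Ebp -0.35, Sc5d -0.014, Dhcr7 -0.075, Elovl5 -0.42 and Stard4 -0.072, and of the surrounding genes Plin2 was -0.19, Rabggta -0.27, Acsl4 -0.11, Pgd -0.32, Rnf139 -0.20 and Osbpl9 -0.073. With the description number as a covariate Sqle was -0.12, Lss -0.29 and Elovl5 -0.085. Without WT 1 and KI 1 Hsd17b7 was 0.19, Acly 0.046, Elovl1 0.11, Elovl6 0.24 and Srebf2 0.15. Leaving out single arrays gave -0.15 to 0.044 for Elovl1, -0.39 to 0.022 for Elovl6, -0.068 to 0.072 for Srebf2, -0.087 to 0.20 for Lss, -0.21 to 0.075 for Scd1, -0.078 to 0.019 for Acly and -0.025 to 0.00026 for Insig2.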
